A study of Mus musculus with 9 samples.

Results

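Mitochondrial apoptosis was followed through 9 genes of the BCL2 family and the apoptosome, taken by symbol from the 22337 genes of the retinal expression table: Bax, Bak1, Bcl2, Bcl2l1, Mcl1, Bcl2l11, Bbc3, Apaf1 and Casp9. All 9 genes were found and all 9 passed the filter on low counts in every comparison. RNA-seq was measured in whole retina of mice at postnatal day (P) 28, in 3 groups of 3 libraries each. The WT group held C57 BL/6J retinas that were not treated, and so not injected. The NS and MSC-EVs groups were rd10 mice, which carry a mutation in Pde6b, a subunit of the rod phosphodiesterase, and lose their rods in the first weeks of life. They received 1 µL of normal saline (NS) or of extracellular vesicles from human umbilical cord mesenchymal stem cells (MSC-EVs) in both eyes at P14 and P21. WT and rd10 mice came from different suppliers, so genotype, injection and source cannot be told apart in NS against WT, whereas the rd10 mice of both treatments were littermates. The labels do not say whether the libraries of a group came from separate animals, so the p-values measure only the spread between these libraries.

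In the mitochondrial route to apoptosis, BAX and BAK open pores in the outer mitochondrial membrane. The pro-survival proteins BCL2, BCL-XL (from Bcl2l1) and MCL1 hold them in check, and BH3-only proteins such as BIM (from Bcl2l11) and PUMA (from Bbc3) bind the pro-survival proteins and release this hold. Cytochrome c that leaks out assembles with APAF1 and caspase 9 into the apoptosome, which activates the effector caspases. Much of this control acts on proteins, through binding, cleavage and degradation, and is not read by mRNA. Photoreceptor death in rd10 retina has been tied to several routes, of which this is one.

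The libraries differed in depth and composition. WT libraries held 24155027, 23966614 and 21719248 counts, NS libraries 28545619, 19491717 and 20762670, and MSC-EVs libraries 23058113, 22604485 and 62532343. MSC-EVs replicates 1 and 2 carried 4379 and 4421 counts of 4 Y-linked genes, whereas the other 7 libraries carried 7 to 23, so MSC-EVs replicate 3, the deepest library, stood apart from its group in this respect. The NS libraries carried 7 to 10, so treatment is partly confounded with this difference in MSC-EVs against NS. MSC-EVs replicate 2 stood apart in several genes described here. In MSC-EVs against NS, results that rest on these libraries are given with and without them.

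Marker genes of several cell types differed strongly between WT and rd10. The 12 rod markers fell in NS against WT, all of them, with a median log2 fold change of -1.74, and their summed level was 75952 to 81584 CPM (counts scaled by library size) in WT and 15322 to 21963 CPM in NS. All 12 microglia markers rose, from a summed 78.5 to 84.8 CPM to 442 to 535 CPM, and so did all 8 gliosis markers, from 365 to 383 CPM to 1943 to 2557 CPM. Aif1, a microglial marker, and Gfap, the intermediate filament of reactive glia, were detected in every library. Aif1 had at most 0.359 CPM in WT and entered the test through NS. Ptprc, with a lowest WT library of 0.224 CPM, also passed the filter only with the help of NS libraries. Both are among the 12 microglia markers, and that count draws no support from them. Of 7 markers of infiltrating myeloid cells, S100a8 and S100a9 were at 0 in all 3 WT libraries. Ccr2, Ly6c2, Plac8 and Chil3 had WT means of at most 0.0316 CPM and likewise entered the test through NS. This list is therefore given by its summed level alone, 0.400 to 0.718 CPM in WT and 5.45 to 15.4 CPM in NS. Among the other lists, 6 of 8 Müller glia, 5 of 5 endothelial and 2 of 6 retinal pigment epithelium genes rose, 14 of 21 inner retinal neuron genes rose and 1 fell, 2 of 9 cone genes rose and 3 fell, 1 of 5 erythrocyte genes fell, and none of 6 lens genes passed the test. Over all genes tested, 31.2% were called higher and 30.1% lower in this comparison, beside which these counts are to be read. Of the retinal pigment epithelium genes counted as rising, Best1 had 0.135 to 0.751 CPM in WT and likewise entered the test through NS. In bulk tissue, fewer cells of a type and less RNA per cell cannot be told apart, and the part of these shifts in the results below was not tested.

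Per length of transcript, 2 of the 3 pro-survival genes, Bcl2l1 and Mcl1, were the most abundant of the 9, while the third, Bcl2, was among the lowest. In WT, the mean level was highest for Bcl2l1 at 33.2 FPKM ± 1.43 (SD, n = 3), followed by Mcl1 at 28.3 ± 0.533 and Bax at 14.6 ± 0.507. Below these lay Casp9 at 9.59 FPKM, Bak1 at 5.53 FPKM, Bcl2l11 at 4.89 FPKM, Apaf1 at 3.56 FPKM, Bcl2 at 2.55 FPKM and Bbc3 at 1.303 FPKM. Only Bak1 and Bcl2l11 were neighbours in this order whose WT libraries overlapped. In NS, Mcl1 stood first at 57.7 FPKM ± 0.819, above Bcl2l1 at 43.5 ± 1.51, and no library of these 2 genes overlapped. Bbc3 at 2.52 FPKM lay above Bcl2 at 2.13 FPKM in NS by their means, although their libraries overlapped, as did those of Bak1 and Bcl2l11. In MSC-EVs, Mcl1 at 58.1 FPKM ± 16.2 and Bcl2l1 at 41.6 ± 4.56 overlapped, and so did Bak1 with Bcl2l11, Bcl2l11 with Apaf1, and Bcl2 with Bbc3.

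**Figure D1:**
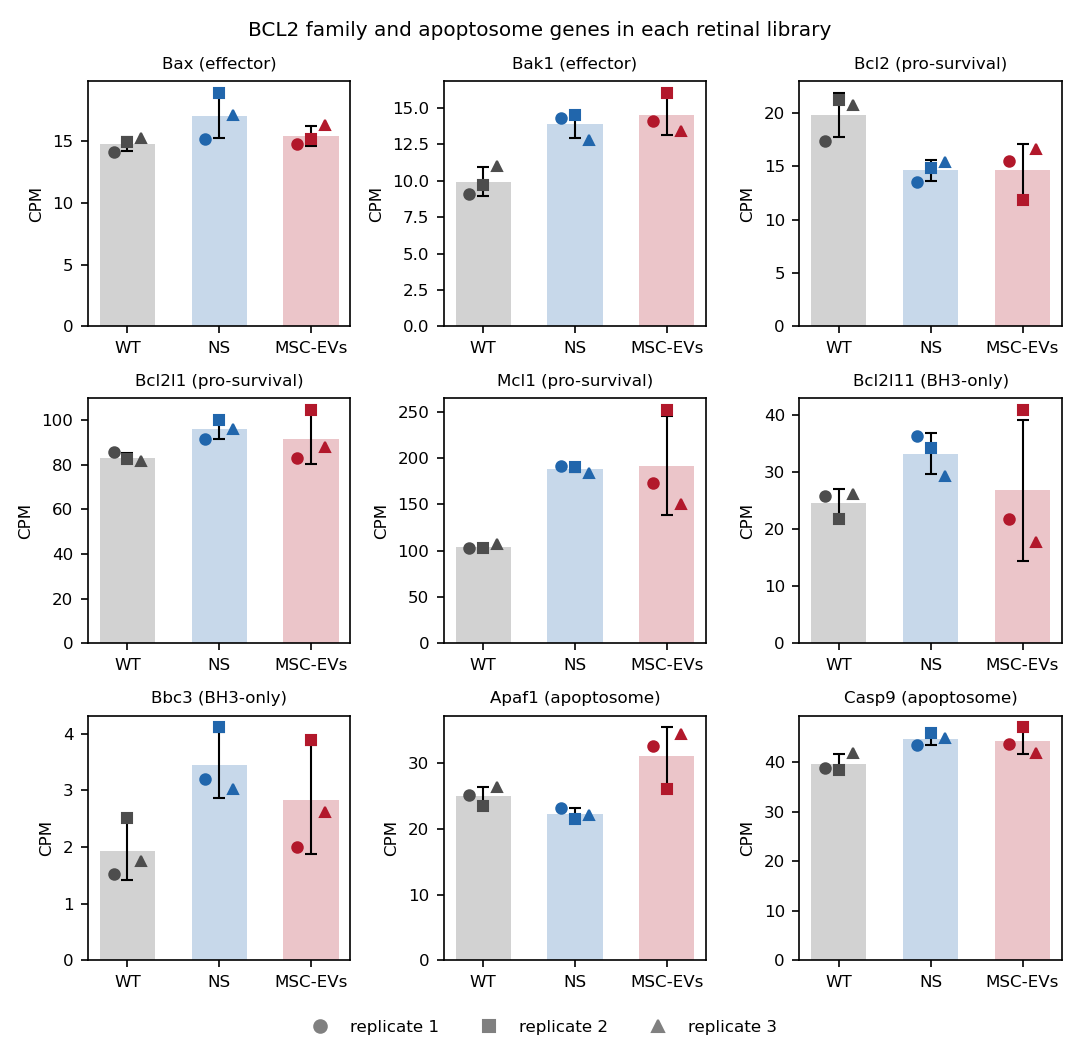
Level of each gene in each library, in CPM scaled over all 9 libraries, for WT, NS and MSC-EVs. Bars are means with SD (n = 3), and the marker shape gives the replicate number. Mcl1 is higher in all 6 rd10 libraries than in WT, and MSC-EVs replicate 2 is the highest of its group for Bak1, Bcl2l1, Mcl1, Bcl2l11, Bbc3 and Casp9.

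The first comparison asked how the pathway differed between the untreated WT retina and the saline-treated rd10 retina. Mcl1 rose 1.80-fold, Bbc3 1.78-fold, Bak1 1.398-fold and Bcl2l11 1.35-fold, and Bcl2l1 and Casp9 rose by less, whereas Bcl2 was 1.36-fold lower. Bax and Apaf1 did not pass the test. In all, 7 of the 9 genes were called at an edgeR adjusted p under 0.05, set against 61.3% of all 14644 genes tested. Called higher were 6 of the 9, against 31.2% of all genes tested, and called lower 1 of the 9, against 30.1%. NS and WT libraries stayed apart, with no overlap, for 8 of the 9 genes, against 66.9% of all genes. None of the 9 reached an absolute log2 fold change of 1, which 12.7% of all genes passed together with the p. The median log2 fold change of the 9 genes was 0.20, beside 0.0053 for all genes tested.

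Of the pore-forming effectors, Bak1 rose and Bax did not pass the test. Bak1 (ENSMUSG00000057789, chr17:27019810-27029009, minus strand; GRCm38 for this and all other positions) had 9.06, 9.71 and 11.01 CPM in WT and 14.3, 14.5 and 12.8 CPM in NS. Every NS library lay above every WT library, and the log2 fold change was 0.48 (SE 0.11, edgeR adjusted p = 0.0024). Bax (ENSMUSG00000003873, chr7:45461697-45466898, minus strand) had 14.1, 14.9 and 15.2 CPM in WT and 15.2, 18.8 and 17.1 CPM in NS. The groups met at the lowest NS library, and the log2 fold change of 0.20 (95% interval -0.01 to 0.42) had an edgeR adjusted p of 0.0923, which was 0.0336 without NS replicate 1. Of the Bak1 exonic bases, 25.5% are overlapped by Ggnbp1 on the opposite strand, and of those of Bax 12.2% by Gm45808 on the same strand. The sources used here do not say whether counting used the strand, so reads in the Bak1 stretch are uncertain, and those in the Bax stretch are uncertain with either setting.

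The pro-survival genes moved in both directions. Mcl1 (ENSMUSG00000038612, chr3:95658788-95663176, plus strand), whose protein turns over quickly, had 103, 103 and 107 CPM in WT and 192, 190 and 184 CPM in NS. The groups lay far apart relative to their spread, with a log2 fold change of 0.85 (SE 0.05, edgeR adjusted p = 6.08e-08). Bcl2l1 (ENSMUSG00000007659, chr2:152780668-152831728, minus strand) had 85.5, 82.4 and 81.7 CPM in WT and 91.7, 99.9 and 95.9 CPM in NS. All NS libraries were higher, by a log2 fold change of 0.20 (SE 0.06, edgeR adjusted p = 0.00773). Bcl2 (ENSMUSG00000057329, chr1:106538178-106714274, minus strand), the founding member of the family, had 17.4, 21.2 and 20.8 CPM in WT and 13.6, 14.8 and 15.4 CPM in NS. It was the only 1 of the 9 genes called lower, at a log2 fold change of -0.44 (SE 0.10, edgeR adjusted p = 0.00208). The gene-level table does not separate isoforms, and Bcl2l1, Mcl1 and Bcl2l11 have 8, 2 and 5 annotated coding transcripts.

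Both BH3-only genes rose. Bcl2l11 (ENSMUSG00000027381, chr2:128126038-128162547, plus strand) had 25.9, 21.8 and 26.2 CPM in WT and 36.3, 34.2 and 29.3 CPM in NS. The groups did not overlap, and the log2 fold change was 0.44 (SE 0.10, edgeR adjusted p = 0.00255), a call that was lost when all 9 libraries entered 1 fit (edgeR adjusted p = 0.233). Bbc3 (ENSMUSG00000002083, chr7:16308393-16318205, plus strand), a p53 target, was the least abundant of the 9 genes in WT, with 1.53, 2.51 and 1.75 CPM, and had 3.21, 4.12 and 3.02 CPM in NS. Its NS libraries were all higher, but the spread was wide at these levels, and the log2 fold change of 0.83 had an interval from 0.30 to 1.35 (edgeR adjusted p = 0.0101).

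Because both BH3-only genes rose, the RefSeq promoter windows of the 9 genes (GRCm38.p6, 250 bases before to 50 after the start, 14 windows, all 9 genes matched) were searched on both strands. The letters searched were GTAAACA (FOXO), TTCNNNGAA (STAT), TGANTCA (AP-1), TGACGTCA (CRE) and TGATGNAA (CARE), together with the NF-kB and p53 sites, a set of 7 motifs chosen with results known. No FOXO match overlapped another motif. The FOXO letters were found in 2 of the 14 windows, 1 of Bcl2l11 and 1 of Bbc3, and in 3.65% of all 32851 promoter windows. The NF-kB site was found in 3 of the 14 windows, 1 each of Bcl2l11, Bbc3 and Bak1, and in 20.7% of all windows, so the FOXO letters are not the only ones that both BH3-only genes hold. Genes with several windows, as these 2 are, have more chances of a match. No p53, STAT, AP-1, CRE or CARE match was found in any of the 14 windows. A match is a description of the sequence and was not tested for binding. The stretches around the FOXO letters are shown, with the match in capitals.
Bcl2l11, chr2:128125800-128125828, plus strand, no annotated gene there, match starting 227 bases before the start site: aagacactaggGTAAACAcgccggggtgg
Bbc3, chr7:16310083-16310111, plus strand, within the Bbc3 gene but in no exon, match on the minus strand starting 167 bases before the start site: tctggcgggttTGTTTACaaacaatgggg

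The apoptosome genes moved little. Casp9 (ENSMUSG00000028914, chr4:141793612-141815976, plus strand), the initiator caspase, had 38.7, 38.3 and 41.8 CPM in WT and 43.5, 45.9 and 44.7 CPM in NS. All NS libraries were higher, with a log2 fold change of 0.17 (SE 0.07, edgeR adjusted p = 0.0358), and the call was lost without WT replicate 1 or 2 or NS replicate 2 or 3 (edgeR adjusted p 0.109, 0.128, 0.0691 and 0.0726), with the DESeq2 Wald test (0.0743) and with no filter (0.0505). Apaf1 (ENSMUSG00000019979, chr10:90989311-91082770, minus strand), the scaffold of the apoptosome, had 25.1, 23.5 and 26.4 CPM in WT and 23.2, 21.5 and 22.2 CPM in NS. Every NS library lay below every WT library, but the log2 fold change of -0.16 (95% interval -0.34 to 0.01) had an edgeR adjusted p of 0.0976.

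**Figure D2:**
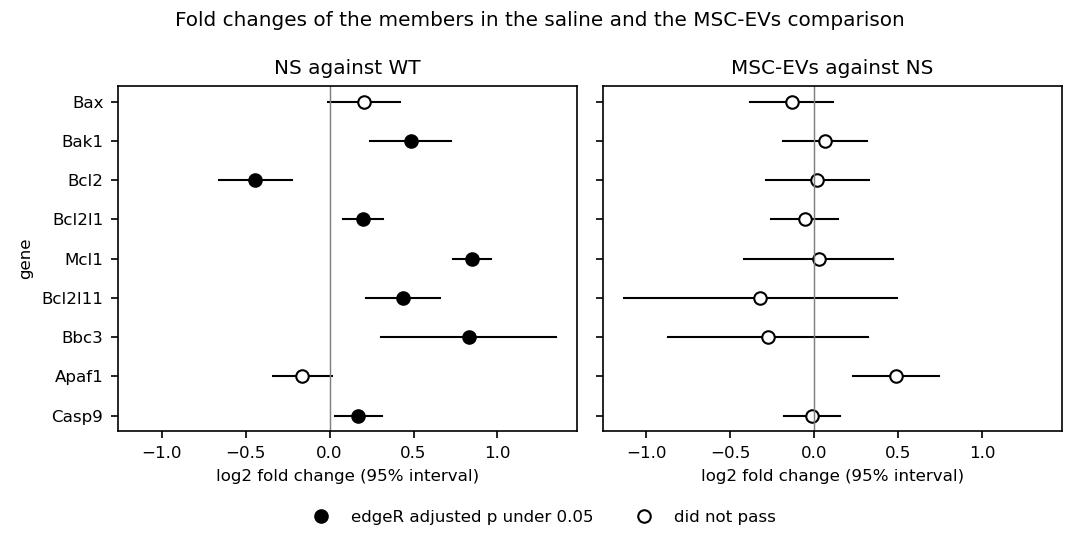
Log2 fold change of each gene with its 95% interval in NS against WT (left) and MSC-EVs against NS (right), from edgeR. Filled points passed an adjusted p under 0.05. In NS against WT, 7 of 9 points are filled, and in MSC-EVs against NS none is, with Apaf1 the only interval that lies clear of 0.

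Several of these calls changed under other settings, and the cause was not tested. When libraries were scaled to the 21 inner retinal neuron genes, the median log2 fold change of all genes in NS against WT moved to -0.18, with 2770 genes called higher and 6113 lower, beside 4562 and 4410 with TMM. The other setting, limma on log2(FPKM + 1), changed the unit, the test and the pseudocount together, and the added 1 shrinks the fold changes of genes at low FPKM such as Bcl2 and Bbc3. There the median moved to 0.14, with 6051 called higher and 2377 lower. Mcl1 and Bbc3 were called higher under TMM and both alternatives. Bcl2 stood at -0.44, -0.63 and -0.18, and was not called on the FPKM scale (limma adjusted p = 0.127). Bak1, Bcl2l1 and Bcl2l11 lost their calls under inner retinal scaling, with edgeR adjusted p-values of 0.0739, 0.896 and 0.0818, and Casp9 turned to -0.02. Apaf1 was called lower there, at -0.36 (edgeR adjusted p = 0.00709), and stood at 0.02 on the FPKM scale. Bax was called higher on the FPKM scale alone of these 3, at 0.35 (limma adjusted p = 0.006).

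**Figure D3:**
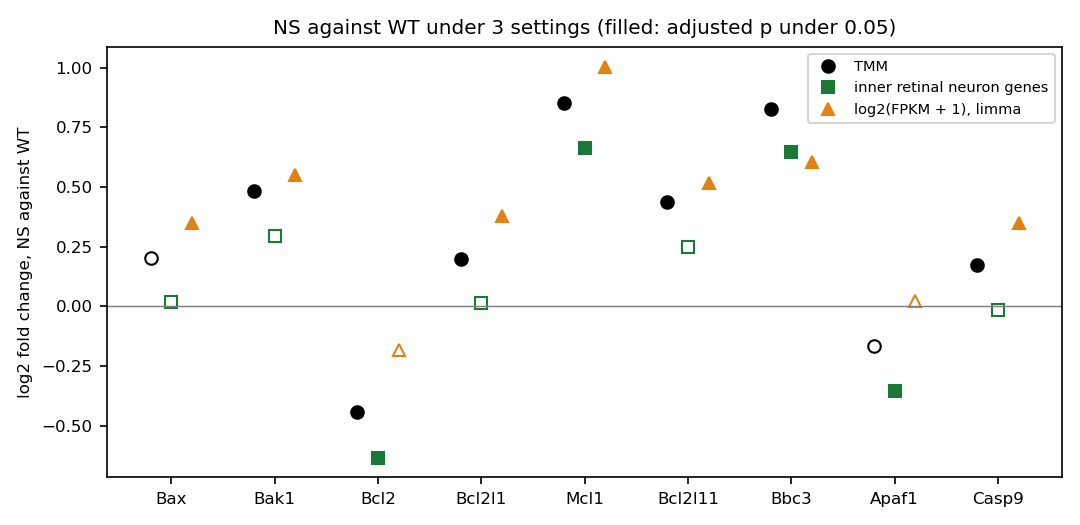
Log2 fold change of each gene in NS against WT under TMM, under scaling to inner retinal neuron genes, and on log2(FPKM + 1) with limma. Filled points passed an adjusted p under 0.05. Mcl1 and Bbc3 are filled and above 0 under all 3, whereas Casp9 and Apaf1 change sign.

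Ratios between genes of 1 library do not depend on the scaling of libraries. The Bax to Bcl2 ratio of FPKM was 6.30, 5.46 and 5.53 in WT and 8.66, 9.80 and 8.30 in NS, and the Bcl2l1 to Bcl2 ratio was 15.6, 11.8 and 12.1 in WT and 21.6, 20.8 and 19.2 in NS. Neither pair of groups overlapped, and the differences in log2 ratio were 0.63 and 0.65. Relative to Mcl1, the effector Bak1 and the BH3-only gene Bcl2l11 were lower in every NS library than in any WT library, with differences in log2 ratio of -0.40 and -0.42. The difference was 0.55 for Bbc3 to Bcl2l1 and -0.35 for Apaf1 to Casp9, again with no overlap, whereas Bax to Bcl2l1 differed by -0.02 and overlapped. With 3 libraries against 3, the exact permutation test (two-sided) cannot go below 0.1, which these 6 differences reached, and the Benjamini-Hochberg adjusted value over 21 tests was 0.21.

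Around the 9 genes, 36 further genes of the route were followed by role, and 35 of them were tested in NS against WT, the exception being Bik, a BH3-only gene with few counts there. Of these, 12 were called higher and 11 lower, 65.7% together and thus near the 61.3% of all genes, and 5 of the 12 (Bcl2a1a, Bcl2a1b, Bcl2a1d, Birc3 and Birc5) had at most 10 counts in each WT library and entered the test through the NS libraries. Their median log2 fold change was 0.06, and the libraries of 24 of the 35 did not overlap, against 66.9% of all genes. With an absolute log2 fold change of 1 as well, 9 of the 35 were called, against 12.7%, but the same 5 genes are among these 9, so this count is not read as a result about the route. With at least 10 counts asked of every library, 30 genes were tested and 19 called, against 62% of all 13763 genes. The direction of the calls moved with the scale. On log2(FPKM + 1) with limma, 17 of the 35 were called higher and 4 lower, and under inner retinal scaling with edgeR 10 higher and 12 lower.

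These 5 genes are given by their levels alone, since a test of genes that entered through NS adds no support. The Bcl2a1 paralogs (A1) are pro-survival members of the BCL2 family known from leukocytes, and they were almost absent from WT. Bcl2a1a was at 0 in all 3 WT libraries and at 0.473, 1.03 and 0.778 CPM in NS, at least 5.44-fold higher against a floor of 3 counts per library. Bcl2a1b had 0.0897, 0.224 and 0.05005 CPM in WT and 3.11, 4.02 and 1.97 CPM in NS, and Bcl2a1d 0.179, 0.0448 and 0.1001 CPM and 1.12, 0.980 and 0.824 CPM. The paralogs share most of their sequence, so their separate values are uncertain, and summed they had 0.269, 0.269 and 0.150 CPM in WT and 4.70, 6.03 and 3.57 CPM in NS. Birc3 (cIAP2) had 0.269, 0.358 and 0.5005 CPM in WT and 3.65, 3.23 and 2.33 CPM in NS. Birc5 (survivin), which also serves in cell division, had 0.179, 0.269 and 0.4004 CPM in WT and 0.608, 1.91 and 0.641 CPM in NS. In each of the 5, every NS library lay above every WT library. Their entry through NS favoured this, and 66.9% of all genes did not overlap, so it adds no support either. The summed microglia markers were higher in NS beside these genes, and their part in the result was not tested. Of the other pro-survival genes, Bcl2l2 (BCL-W), named after its values were seen, was called lower on counts, at -0.25 (edgeR adjusted p = 0.00364), with mean levels of 43.7 FPKM in WT and 43.03 FPKM in NS and a difference of -0.02 on log2(FPKM + 1) (limma adjusted p = 0.779). Bcl2l10, named in the same way, did not pass the test, at 0.39 (edgeR adjusted p = 0.493). Of the Bcl2l2 exonic bases, 13.3% are overlapped by Gm20521 on the same strand, so reads there are uncertain.

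Of the 4 genes of the p53 axis, 2 were called higher and 1 lower, against 31.2% and 30.1% of all genes. Cdkn1a (p21), a p53 target that arrests the cell cycle, had 6.01, 6.94 and 7.11 CPM in WT and 38.3, 45.1 and 38.8 CPM in NS, 6.07-fold higher (edgeR adjusted p = 2.15e-09). Trp53 itself rose by 0.90 (SE 0.10, edgeR adjusted p = 1.01e-05). Mdm4, which encodes an inhibitor of p53 and was named after its values were seen, was called lower on counts at -0.39 (edgeR adjusted p = 9.62e-04) but not on FPKM (limma adjusted p = 0.0644), and Mdm2, which encodes the ubiquitin ligase of p53, stood at -0.01 (edgeR adjusted p = 0.861). Of the 5 BH3-only genes outside the 9 that were tested, 2 were called higher and none lower, against 31.2% and 30.1%. Pmaip1 (NOXA), another p53 target, rose by 1.84 on the log2 scale and Bid, which links death receptors to mitochondria, by 1.08. Bad, Hrk and Bmf, named after their values were seen, did not pass, at 0.05, 0.06 and 0.43 (edgeR adjusted p = 0.666, 0.86 and 0.177). Genes on the opposite strand overlap 17.7% of the exonic bases of Bid and 20.5% of those of Bad, so reads in these stretches are uncertain. Casp6, an effector caspase, rose by a log2 difference of 0.57 (edgeR adjusted p = 0.0131), a call lost under inner retinal scaling (edgeR adjusted p = 0.101).

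Xiap was called lower in NS on counts, under inner retinal scaling and on FPKM, whereas for most of the genes whose proteins are released from mitochondria the call rested on the scale. Xiap, which encodes an inhibitor of caspases, had 569, 570 and 574 CPM in WT and 284, 285 and 281 CPM in NS, a log2 fold change of -1.01 (SE 0.05, edgeR adjusted p = 1.34e-08). No library came near the other group, and on log2(FPKM + 1) the difference was -0.86 (limma adjusted p = 8.69e-07) and under inner retinal scaling -1.20. Of the same family of inhibitors, Birc2 and Birc6, named after their values were seen, were also called lower, while 30.1% of all genes were, and Birc3 and Birc5 are described above by their levels. Birc6 and Birc2 were called lower on counts but not on FPKM. Birc6 had a log2 difference of -0.37 there (edgeR adjusted p = 1.02e-04) and one of 0.02 on log2(FPKM + 1) (limma adjusted p = 0.851), with means of 24.3 FPKM in WT and 24.7 FPKM in NS. Birc2 stood at -0.33 and -0.09 (edgeR adjusted p = 6.54e-04 and limma adjusted p = 0.221). Of the 5 genes released from mitochondria, 4 were called lower on counts and none higher, against 30.1% and 31.2%, and the fifth, Diablo, stood at -0.17 (edgeR adjusted p = 0.0571). Endog, Htra2, Aifm1 and Cycs had log2 fold changes of -0.56, -0.37, -0.26 and -0.22 there, and all 5 were called lower under inner retinal scaling. On log2(FPKM + 1) Endog alone of the 5 was called, at -0.33 (limma adjusted p = 0.00511). Other genes overlap 35.7% of the exonic bases of Endog, 43.7% of Htra2 and 40.9% of Diablo. With the strand setting unknown, reads in these stretches are uncertain. Cycs shares 26.1% of its 50-base stretches with other genes, most with Gm10053, so reads there are uncertain too. Cycs, which encodes cytochrome c, had means of 32.8 FPKM in WT and 31.9 FPKM in NS, Aifm1 10.6 and 10.1 FPKM, and Diablo 29.1 and 29.9 FPKM. All but Cycs were named after their values were seen, and the cause of the difference between the scales was not tested.

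**Figure D4:**
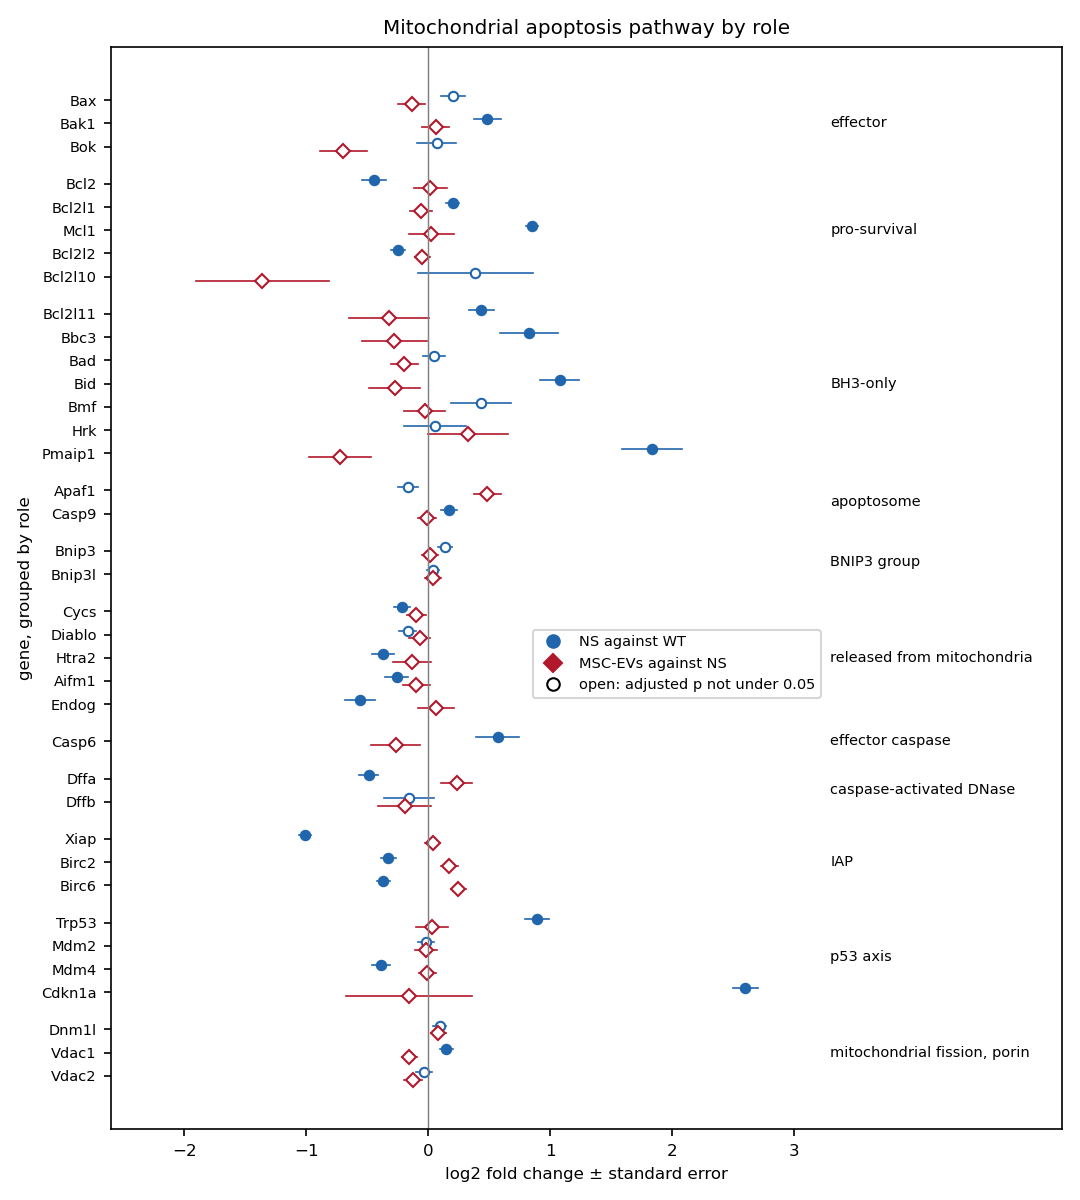
Log2 fold changes with standard errors of genes of mitochondrial apoptosis reported here and tested in NS against WT, grouped by role, without the 5 genes of few WT counts, in NS against WT (blue circles) and MSC-EVs against NS (red diamonds). Filled symbols passed an edgeR adjusted p under 0.05. The blue symbols range from -1.01 for Xiap to 2.603 for Cdkn1a, and no red symbol is filled.

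The second comparison asked what MSC-EVs changed in the rd10 retina. None of the 9 genes was called in MSC-EVs against NS, and 1.16% of all 14765 genes tested were, 0.914% higher and 0.251% lower. That background of 172 genes depended on single libraries, since edgeR called 0 when either NS replicate 3 or replicate 1 of MSC-EVs was left out (1991 and 2052 genes at an unadjusted p under 0.05), 32 when NS replicate 2 was and 676 when MSC-EVs replicate 2 was. Apaf1 came nearest, 1.401-fold higher in MSC-EVs, and was the only gene of the 9 whose libraries did not overlap, against 26.2% of all genes. It was also the only 1 of the 9 with an unadjusted edgeR p under 0.05, which 20.2% of all genes had, and DESeq2 called 1 of the 9, Apaf1, against 6.3% of all genes. With the fold limit of 1 added, 0.061% of all genes were called and none of the 9. This comparison shares the NS libraries with the first.

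Apaf1 had 32.7, 26.0 and 34.5 CPM in MSC-EVs replicates 1, 2 and 3, beside 21.5 to 23.2 CPM in NS and 23.5 to 26.4 CPM in WT. All MSC-EVs libraries lay above all NS libraries, and replicate 2 was the lowest of them and within the WT range. The log2 fold change was 0.49 (SE 0.11, 95% interval 0.23 to 0.74, edgeR adjusted p = 0.0698). The adjusted p lay between 0.00878 and 0.26 over the other settings tried, and fell below 0.05 in some of them, among them the DESeq2 Wald test (0.00878) and all 9 libraries in 1 edgeR fit (0.0211). These 2 settings called 930 and 1026 of all genes, in place of 172. Apaf1 was not called under inner retinal scaling, with Y-linked expression as a covariate, or without MSC-EVs replicate 1. The log2 ratio of Apaf1 to Casp9 was higher in MSC-EVs than in NS by 0.47 with no overlap, at the smallest exact permutation p of 0.1 (adjusted 0.21).

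For the other 8 genes, the fitted differences were smaller than the spread allowed to call. Bak1 had 14.1, 16.01 and 13.4 CPM, Bax 14.7, 15.2 and 16.3 CPM, and Casp9 43.6, 47.0 and 41.8 CPM in MSC-EVs. Their log2 fold changes against NS were 0.06 (95% interval -0.19 to 0.31), -0.14 (-0.38 to 0.11) and -0.01 (-0.18 to 0.15), and all overlapped with NS. Bcl2 had 15.5, 11.9 and 16.6 CPM and Bcl2l1 83.0, 104 and 87.8 CPM, with log2 fold changes of 0.02 (-0.29 to 0.32) and -0.06 (-0.26 to 0.14). The intervals of Bax, Bcl2l1 and Casp9 include a fall of the same size as their difference between WT and NS, so the data do not show that the groups are alike. Those of Bak1 and Bcl2 stop short of a change back by the full 0.48 and 0.44 that separated NS from WT.

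Mcl1, Bcl2l11 and Bbc3 had wide intervals, and MSC-EVs replicate 2 was the highest of its group for each of them. Mcl1 had 173, 252 and 151 CPM, Bcl2l11 21.8, 40.9 and 17.8 CPM, and Bbc3 2.01, 3.88 and 2.63 CPM in MSC-EVs replicates 1, 2 and 3. Replicate 2 was above every NS library for Mcl1 and Bcl2l11, while replicates 1 and 3 were below every NS library for all 3 genes. The log2 fold changes were 0.03 (95% interval -0.42 to 0.47), -0.32 (-1.14 to 0.49) and -0.28 (-0.87 to 0.32). The interval of Mcl1 stops short of a fall by the 0.85 that separated NS from WT, whereas those of Bcl2l11 and Bbc3 include a fall by their 0.44 and 0.83. Cdkn1a showed the same split, at 23.7, 66.8 and 19.9 CPM, with a log2 fold change of -0.16 and an edgeR adjusted p of 0.904. Bcl2l1, described above, also had replicate 2 above and replicates 1 and 3 below every NS library. It ranged from 83.0 to 104 CPM, beside 91.7 to 99.9 CPM in NS. For Bak1 and Casp9 too, replicate 2 was the highest of its group.

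The summed microglia markers were 533, 631 and 363 CPM in MSC-EVs replicates 1, 2 and 3 and 442 to 535 CPM in NS, so replicate 2 was the highest there as well, and none of the 12 markers was called between the groups. The summed lens markers, led by Cryaa, set replicate 2 apart by more, at 8.69, 92.02 and 32.2 CPM beside 29.2 to 37.4 CPM in NS, and those of infiltrating myeloid cells, led by Ly6c2, were 33.4, 25.9 and 3.56 CPM beside 5.45 to 15.4 CPM in NS, with none of either list called. The summed gliosis markers were 3559, 3170 and 2496 CPM, where replicate 1 was the highest. Of these 8 markers 2 were called higher in MSC-EVs, against 0.914% of all genes. The summed Müller glia markers, led by Glul, were lower in every MSC-EVs library, at 4879, 4463 and 4665 CPM beside 6213, 5211 and 6065 CPM in NS, and none of the 8 was called. The 9 cone markers summed to 1006, 917 and 1178 CPM beside 1243, 1133 and 1197 CPM in NS, with a median log2 fold change of -0.32. The libraries of 5 of the 9 did not overlap, against 26.2% of all genes, but none was called. Of the 21 inner retinal neuron genes 1 was called lower, against 0.251% of all genes. The 12 rod markers summed to 15957, 20365 and 22344 CPM, and none was called. Whether these shifts play a part in the levels of Apaf1, Bcl2l1, Mcl1, Bcl2l11, Bbc3 and Cdkn1a was not tested.

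Each library was left out in turn, and the fit without MSC-EVs replicate 2 is given because of that library's values in these same genes. In that fit Bcl2l11 and Apaf1 were called in MSC-EVs against NS, which adds no support of its own. Bcl2l11 was lower, with a log2 fold change of -0.75 (SE 0.13, edgeR adjusted p = 0.0136), and Apaf1 higher, at 0.60 (SE 0.09, edgeR adjusted p = 0.00905). Bbc3 moved from -0.28 to -0.54 (SE 0.25, edgeR adjusted p = 0.231) and Mcl1 from 0.03 to -0.21 (SE 0.08, edgeR adjusted p = 0.14), and neither passed the test. Of the other genes of the route, Cdkn1a was lower, at -0.90 (SE 0.11, edgeR adjusted p = 0.00385), and Birc6, named after its values were seen, was higher at 0.29 on counts (edgeR adjusted p = 0.0491). In this fit 4.53% of all 14908 genes were called, in place of 1.16%. Without MSC-EVs replicate 3 none of the 9 was called, and Bcl2l11 stood at -0.09 (edgeR adjusted p = 0.9).

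**Figure D5:**
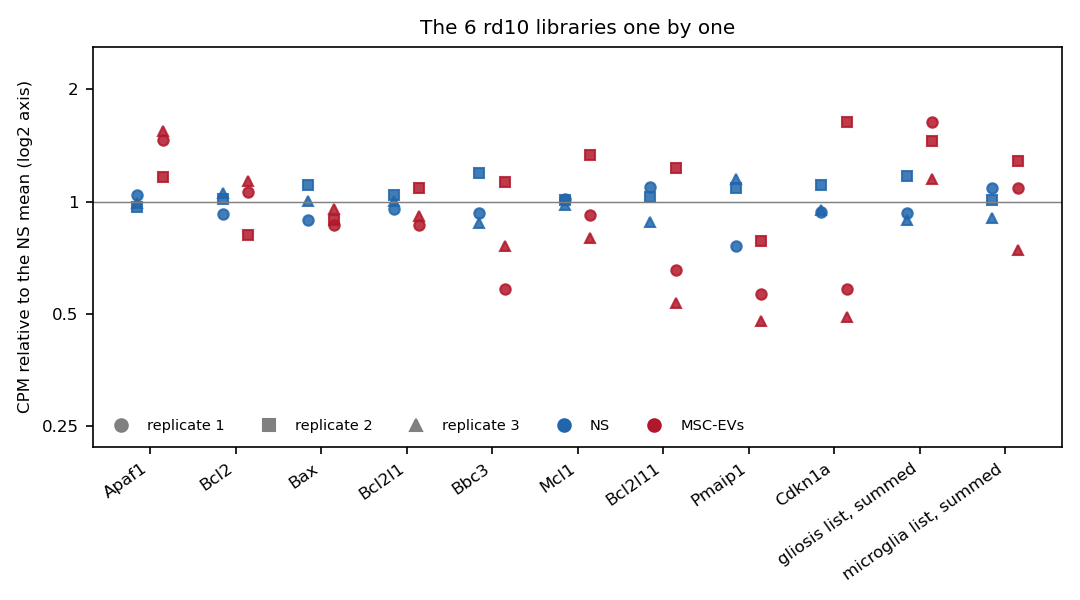
Level of 9 apoptosis genes and of 2 summed marker lists in each of the 6 rd10 libraries, relative to the NS mean, on a log2 axis. Blue is NS and red is MSC-EVs, and the marker shape gives the replicate number. MSC-EVs replicate 2 (red squares) lies above NS for Bcl2l1, Mcl1, Bcl2l11, Cdkn1a and the microglia list, while replicates 1 and 3 lie below NS for Bcl2l1, Mcl1, Bcl2l11, Bbc3 and Cdkn1a.

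None of the 35 further genes tested was called in MSC-EVs against NS by edgeR, 6 had an unadjusted p under 0.05 (20.2% over all genes), and DESeq2 called 1, Birc6 (adjusted p = 0.0181), against 6.3% of all genes. On the FPKM scale Birc6 went the other way, with means of 22.02 FPKM in MSC-EVs and 24.7 FPKM in NS and a difference of -0.16 (limma adjusted p = 0.355). Xiap had 284, 278 and 307 CPM, Trp53 24.5, 18.6 and 18.4 CPM, and Cycs 91.3, 83.1 and 92.2 CPM in MSC-EVs, with log2 fold changes of 0.04, 0.03 and -0.10. All edgeR adjusted p-values of these 3 were at least 0.537. The libraries of 5 of the 35 did not overlap, against 26.2% of all genes, and these were chosen after their values were seen. Bok, Bad and Vdac1 were lower in MSC-EVs in every library and Birc2 and Birc6 higher, on counts, with Birc6 the nearest to a call with a log2 difference of 0.25 (edgeR adjusted p = 0.0854).

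The third comparison set MSC-EVs against WT and shares libraries with both others. Of the 9 genes, 4 were called, against 55.5% of all 14623 genes tested. Bak1 (log2 fold change 0.55), Mcl1 (0.88) and Apaf1 (0.33) were higher, against 28.3% of all genes, and Bcl2 was lower (-0.42), against 27.2%, with edgeR adjusted p-values of 0.00317, 0.0117, 0.0255 and 0.022. The libraries did not overlap for 4 of the 9 genes, Bak1, Mcl1, Bcl2 and Casp9, against 65.1% of all genes. None passed the fold limit of 1, which 12.2% of all genes did. Leaving out WT replicate 2 or WT replicate 3 removed the calls of Bcl2 and Apaf1, so that 2 of the 9 remained, and Apaf1 also lost its call without WT replicate 1, MSC-EVs replicate 1 or MSC-EVs replicate 3 (edgeR adjusted p 0.0715, 0.0774 and 0.0717). Scaled to inner retinal neuron genes, where the median of all genes moved to -0.18 and 2495 genes were called higher and 5779 lower in place of 4137 and 3980, Bcl2 alone of the 9 was called, and Bak1 and Mcl1 had edgeR adjusted p-values of 0.0526 and 0.0527. On log2(FPKM + 1), 5499 were called higher and 2206 lower, and 6 of the 9 genes were called. Of the 36 further genes, 12 were called higher and 11 lower, 63.9% together, with 16 and 5 on log2(FPKM + 1) and 10 and 17 under inner retinal scaling. Of these 12, 6 (Bik and the 5 genes of few WT counts above) had at most 10 counts in each WT library and entered the test through MSC-EVs, so the counts are not read as a result about the route. Side by side for NS and MSC-EVs against WT, the log2 fold changes were 0.48 and 0.55 for Bak1, 0.85 and 0.88 for Mcl1, -0.44 and -0.42 for Bcl2, 0.44 and 0.12 for Bcl2l11, 0.83 and 0.56 for Bbc3, and -0.16 and 0.33 for Apaf1. For Bak1, Mcl1, Bcl2l11 and Bbc3, MSC-EVs replicate 2 was the highest of its group. The Bcl2l11 value against WT changed sign when single libraries were left out, as given in the last section.

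Across the 9 libraries, each gene was also set beside the 14451 genes that could be compared, by Pearson's r of log2(CPM + 1), as a description, since the libraries share their groups. Mcl1 was most like Micall2, Sh3pxd2b and Pde4b (r = 0.995 for each), Bak1 like Tuba1c (0.988), Casp9 like Cers2 (0.987), Bcl2l1 like Foxo6 (0.986) and Bcl2 like Tyw3 (0.981). Apaf1 (Polr3k, 0.965), Bbc3 (Ticam1, 0.953), Bcl2l11 (5031439G07Rik, 0.947) and Bax (Gsg1l, 0.946) had less close neighbours. Among the 9 themselves, r was 0.945 between Mcl1 and Bak1, -0.935 between Mcl1 and Bcl2, and -0.649 between Apaf1 and Bcl2l11 (n = 9 libraries).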

How the data were processed

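Retinal RNA-seq of 9 libraries was read from 1 table. The authors made the estimated counts (expected counts, not scaled to library size) by assigning reads to genes before deposit. The authors also deposited FPKM values, which they scaled to transcript length and depth. The submitters' processing notes name fastp, Bowtie2, HISAT2, StringTie 1.3.1 and RSEM without their roles, and the genome build and strand setting are not given in the sources used here. Estimated counts were rounded. For every pair of groups, the 6 libraries entered 1 quasi-likelihood fit of edgeR 4.0.16 under R 4.3.3 (filterByExpr, TMM, robust glmQLFit, glmQLFTest), with Benjamini-Hochberg adjustment over all genes tested and calls at an adjusted p under 0.05. The SE is the absolute log2 fold change divided by the square root of F. CPM are counts scaled by TMM over all 9 libraries. Alternatives used limma 3.58.1 on log2(FPKM + 1) and DESeq2 1.42.0. The fits were tested on simulated data. Positions came from GENCODE M21 by identifier and promoters from RefSeq GRCm38.p6. The 9 genes, the pathway and marker lists and the tests were chosen with earlier results of these data known. Named were all 9 genes, the 12 called pathway genes with the largest change in NS against WT plus Trp53, Cycs and Xiap, the leading markers, and the genes most alike in pattern, and some genes that this rule covers are not reported here. Precision is limited by 3 libraries per group. Groups were assigned from the sample labels.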

Additional observations from a re-analysis of the deposited data

How the results depend on the processing

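In NS against WT, the number of the 9 genes called was 7, and 6 to 8 when any library was left out, 4 when scaled to inner retinal neuron genes and 0 with the fold limit of 1. That of the further genes was 23, 20 to 22 with a library left out and 9 with the fold limit. In MSC-EVs against NS, where none of either was called, 1 of the 9 was called with DESeq2, with all 9 libraries in 1 fit and with the replicate number as a block (Apaf1 each time), 2 (Bcl2l11 and Apaf1) with the library of few Y-linked counts alone (an alternative chosen after seeing the data, in which 1 library is assumed to vary like the others), and 0 to 2 with a library left out, the 2 arising without MSC-EVs replicate 2. Of the further genes, 1 was called with DESeq2 (Birc6), 2 with all 9 libraries (Birc6 and Bok), 1 with that library alone (Cdkn1a) and 0 to 2 with a library left out (Birc6 and Cdkn1a without MSC-EVs replicate 2). In MSC-EVs against WT, the 9 genes gave 1 call under inner retinal scaling, 0 with the fold limit and 2 to 5 with a library left out, and the further genes 8 with the fold limit (6 of them with few WT counts) and 17 to 25 with a library left out.

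All genes called in MSC-EVs against NS numbered 172, and 403 with the replicate block, 930 with DESeq2, 1026 with all 9 libraries, 26 under inner retinal scaling, 0 without NS replicate 3 or MSC-EVs replicate 1 (1991 and 2052 at an unadjusted edgeR p under 0.05), 32 without NS replicate 2 and 676 without MSC-EVs replicate 2. Same-numbered MSC-EVs and NS libraries correlated at 0.084, 0.216 and 0.268 in their deviations, each best with its own number, and NS and WT at 0.0902, -0.08 and -0.0533. The labels do not tie the numbers, so the block was not used. Under it Apaf1 was called in MSC-EVs against NS (0.48, edgeR adjusted p = 0.0464), Casp9 lost its call in NS against WT (edgeR adjusted p = 0.0515), and Mcl1 in MSC-EVs against NS turned to -0.0056.

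Directions turned in the following cases, none of them a called value except Casp9 in NS against WT, and the cause was not tested. In NS against WT, Casp9 was -0.017 under inner retinal scaling and Apaf1 0.024 on log2(FPKM + 1). In MSC-EVs against NS, Bcl2 and Mcl1 were -0.017 and -0.0073 with upper-quartile normalization and -0.013 and -0.024 on log2(FPKM + 1), Casp9 was 0.0057 under inner retinal scaling, and Bak1 and Mcl1 were -0.040 and -0.31 with Y-linked expression as a covariate and -0.042 and -0.31 with the library of few Y-linked counts alone. In MSC-EVs against WT under inner retinal scaling, Bax was -0.11, Bcl2l1 -0.023, Bcl2l11 -0.029 and Casp9 -0.011. The Bax to Bcl2l1 log2 ratio in NS against WT was 0.0014 when taken from CPM.

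With each library left out in turn, the log2 fold changes in MSC-EVs against NS ran from -0.010 to 0.12 for Bak1, -0.092 to 0.15 for Bcl2, -0.16 to 0.014 for Bcl2l1, -0.21 to 0.17 for Mcl1 and -0.057 to 0.022 for Casp9, and in MSC-EVs against WT from -0.33 to 0.36 for Bcl2l11. The differences in log2 ratio ran from -0.085 to 0.036 for Bax to Bcl2l1 in NS against WT, from -0.14 to 0.012 for the same ratio and from -0.27 to 0.074 for Bcl2l1 to Bcl2 in MSC-EVs against NS, and from -0.030 to 0.44 for Bbc3 to Bcl2l1 in MSC-EVs against WT.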
